A study of Mus musculus with 8 samples.

Results

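Interferon-stimulated genes (ISGs) are the transcripts that cells make in response to interferons. The 37 genes described here form a list named gene by gene, and each was found by its symbol in the RNA-seq count table, so all 37 of the 19191 genes in that table were accounted for. All 37 also passed the filter on low counts, with which 14274 genes of the table were tested. The cells were regulatory T (Treg) cells, suppressive CD4 T cells, sorted by flow cytometry from the large intestine lamina propria of C57BL/6 mice. All of these mice carried a Cre recombinase linked to Yfp and expressed with Foxp3, the gene that defines Treg cells, together with a floxed allele of Ahr, the ligand-activated aryl hydrocarbon receptor. The second Ahr allele was intact in the 2 WT libraries (genotype Ahrf/+ Foxp3Yfp-Cre) and null in the 2 KO libraries (Ahrf/- Foxp3Yfp-Cre). Thus even the WT Treg cells had 1 functional copy, and non-Treg cells of the KO mice had 1 copy where those of the WT mice had 2. Neither the age of the mice nor any pooling of animals is given in the sources used here.

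Type I interferons bind the receptor made of Ifnar1 and Ifnar2, and the kinases Jak1 and Tyk2 then activate signal transducers, among them Stat2, which with Irf9 is part of the complex that binds the interferon-stimulated response element (ISRE) of ISG promoters. Interferon gamma binds Ifngr1 and Ifngr2 and acts mainly through gamma-activated sequences. The products sense viral RNA and DNA, degrade or block viral RNA, conjugate ISG15 and process antigen, and uninfected immune cells keep a low tonic level of most of them. In the gut this tone is linked to the microbiota.

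The element that links many of these genes is visible in their promoters. RefSeq promoter windows (build GRCm38.p6, 250 bases before to 50 after a start) were matched by symbol for 29 members. The ISRE core, searched as TTTC, any 2 bases and TTTC or as its reverse complement, was present in 11 of the 29 (37.9%), against 3.99% of all 27025 genes with such a window. The capitals below mark the core, overlapping cores are counted separately, and 1 core is shown for each of the 11 genes, read 5′ to 3′ on the strand of the gene.
Ifit1 (chr19:34640775-34640804, plus strand): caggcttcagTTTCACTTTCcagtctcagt
Ifit3 (chr19:34583363-34583392, plus strand): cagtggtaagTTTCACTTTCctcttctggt
Stat2 (chr10:128270266-128270295, plus strand): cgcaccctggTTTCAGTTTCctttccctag
Rsad2 (chr12:26456553-26456582, minus strand): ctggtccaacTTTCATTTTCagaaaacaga
Ddx58 (chr4:40239804-40239833, minus strand): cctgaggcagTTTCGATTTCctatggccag
Isg15 (chr4:156200871-156200900, minus strand): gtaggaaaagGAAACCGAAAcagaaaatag
Oas1a (chr5:120907520-120907549, minus strand): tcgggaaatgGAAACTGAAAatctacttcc
Oas3 (chr5:120777715-120777744, minus strand): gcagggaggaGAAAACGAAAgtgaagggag
Bst2 (chr8:71537577-71537606, minus strand): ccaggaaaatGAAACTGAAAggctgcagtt
Eif2ak2 (chr17:78882535-78882564, minus strand): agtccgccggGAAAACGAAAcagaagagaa
Ifih1 (chr2:62646206-62646233, minus strand): gaagagaatcGAAACAGAAAccgatctg

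Isg15 carried 3 overlapping cores and Ifit1, Ifit3, Oas1a and Bst2 carried 2 each. The gamma-activated core TTCNNNGAA, which reads the same on both strands, was in 9 of the 29 members, against 9.55% of all genes. The 9 were Ifit2, Isg20, Oas1a, Eif2ak2, Bst2, Ifi35, Adar, Samhd1 and Psmb8. One of these was Psmb8 (chr17:34198088-34198116, plus strand), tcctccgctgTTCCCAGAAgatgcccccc, which starts 97 bases before the annotated start. The short core of the Ahr response element, GCGTG or CACGC, was in 14 of the 29 and in 35.2% of all genes. These are matches of letters in a window, not bound sites.

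Total gene counts ran from 26862922 to 62402450 per library, and replicate 2 was the deeper of both genotypes. Levels are given as CPM, counts per 1000000 counts of a library after TMM scaling, always in the order WT replicate 1, WT replicate 2, KO replicate 1 and KO replicate 2. They compare a gene between libraries, not 1 gene with another, since they are not divided by transcript length. Of the Treg markers, Foxp3 stood at 280, 252, 250 and 259 CPM and Cd4 at 1043, 1090, 1234 and 1175 CPM. The 9 Treg markers summed to 6872, 6657, 7636 and 7070, as CPM of all counts without TMM scaling, higher in both KO libraries. Both KO libraries lay above both WT libraries for 3 of the 9 (13.5% of all genes) and below for 0 (13.4%). Markers of other cell types were unequal between libraries. The summed level of 11 macrophage or monocyte markers, as CPM of all counts without TMM scaling, was 164, 75.6, 117 and 54.6, highest in WT replicate 1 and lowest in KO replicate 2, and each of the 11 was detected. For plasma cells the 5 markers found summed to 142, 272, 148 and 358, higher in both replicate 2 libraries, and the 11 epithelial markers to 27.8, 28.7, 29.2 and 44.6. B cell markers (7) summed to 26.2, 26.8, 24.9 and 20.3, and stromal or endothelial markers (8) to 120, 177, 115 and 179. For plasmacytoid dendritic cells, the main source of interferon alpha, the 8 markers summed to 87.7, 93.1, 95.5 and 91.2, while Siglech, which defines them, had 13, 5, 14 and 2 counts. Lars2, a gene of mitochondrial translation, held 0.0367%, 1.66%, 0.0633% and 0.724% of all counts, so both replicate 2 libraries stood apart from both replicate 1 libraries. In bulk RNA, fewer cells of a type and less RNA per cell cannot be told apart. The labels do not say whether the replicates were separate animals, so p-values measure the spread between these libraries, which may be technical.

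No member was called different between KO and WT. By edgeR's quasi-likelihood test with Benjamini-Hochberg adjustment over all genes, 0 of 37 members passed an adjusted p of 0.05 (0% of all genes tested did), and the lowest adjusted p of a member was 1.00. At an unadjusted p under 0.05, 0 of 37 members were lower and 0 higher, while 1.21% of all genes were lower and 1.64% higher. DESeq2 called 0 members (0.267% of the genes to which it gave an adjusted p), and limma-voom called 0. The adjusted p in the authors' deposited table was under 0.05 for 0 members and for 0.344% of all genes, and the lowest of a member was 0.816, for Rsad2.

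The intervals show how large a difference the data still allow. For 34 of the 37 members the 95% interval of the log2 fold change lay within -1 and 1, which leaves out a 2-fold change in either direction, and for 28 it lay within -0.5 and 0.5. Over all genes tested, these shares were 74.5% and 48.6%. The 3 members with wider intervals were Oas2, Oasl1 and Ifi44, in which the highest library was more than 1.5 times the lowest. In the other 34 it was not, and over all 37 the median ratio of highest to lowest was 1.24.

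**Figure D1:**
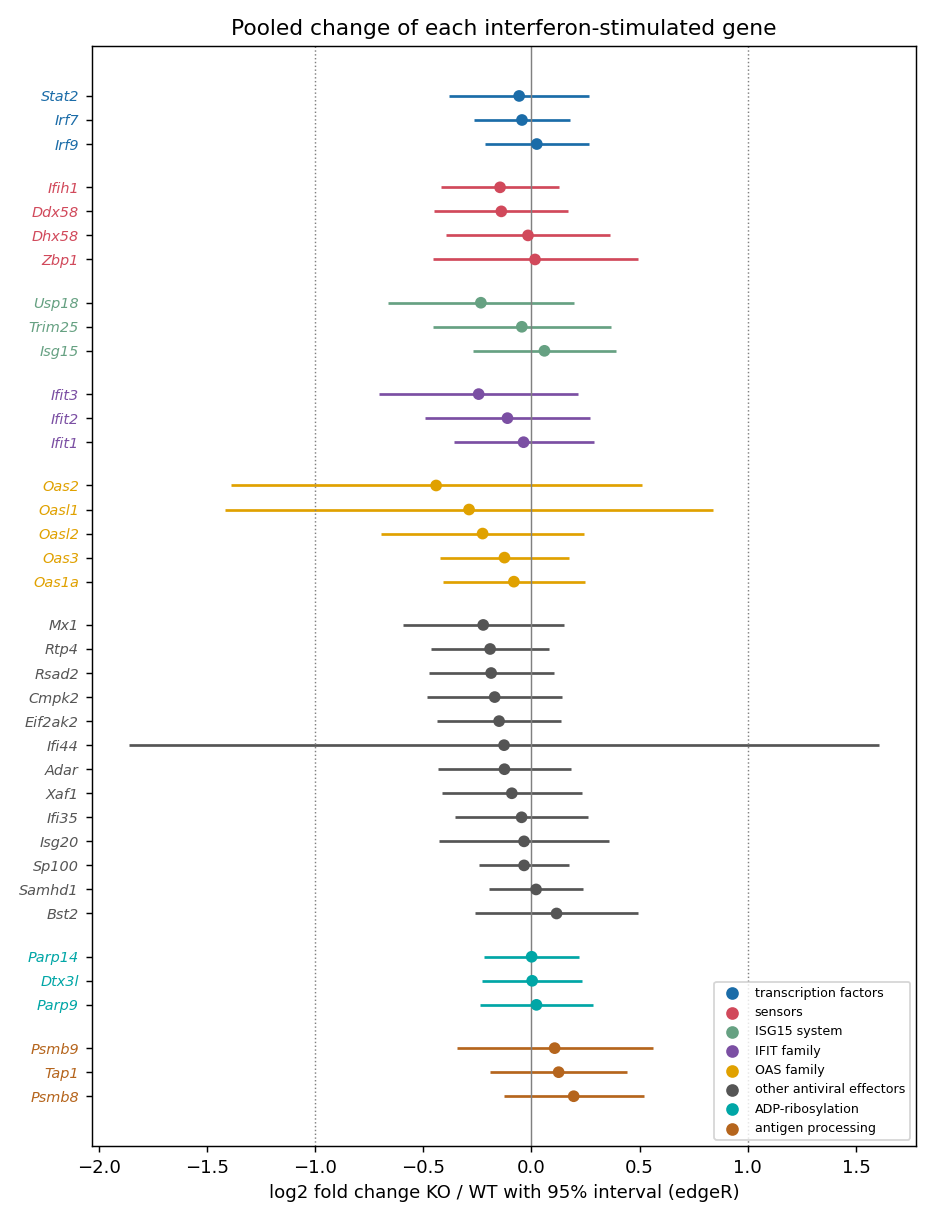
Log2 fold change of KO over WT (x axis) for each of the 37 members (y axis, grouped and coloured by role), with dots for the edgeR estimate and bars for its 95% interval, n = 2 libraries per genotype. All 37 bars cross 0, and 34 lie between the dotted lines at -1 and 1.

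The direction of the small differences was uneven between the replicates. Pooled over replicates, 26 of 37 members were lower in KO (70.3%, against 48% of all genes) with a median log2 fold change of -0.06 (0.01 over all genes). Within replicate 1, 17 members were lower in KO (49.4% of all genes were) and the median log2 ratio was 0.01. Within replicate 2, 28 members were lower in KO (48% of all genes were) and the median was -0.17, where the median of all genes was 0.01, and in replicate 1 it was 0.001. The KO to WT ratio was lower within replicate 2 than within replicate 1 for 29 of 37 members, against 49.3% of all genes. Both replicates gave lower values in KO for 14 members (27.1% of all genes) and higher values for 6 (29.6%), namely Isg15, Irf9, Bst2, Tap1, Psmb8 and Psmb9. With 1 library per genotype and replicate number, the difference between the replicates was not tested. The replicates also differed in Lars2 share and in macrophage, plasma cell and stromal marker sums, as given above, and the part of these was not tested.

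The libraries were unequally often the lowest. KO replicate 2 held the lowest of the 4 levels for 21 of 37 members (56.8%), against 25.7% of all genes. WT replicate 1 was lowest for 8 members, KO replicate 1 for 7 and WT replicate 2 for 1. Averaged over the 37 members, log2 CPM was 5.22, 5.30, 5.24 and 5.10, and averaged over all genes tested it was 3.74, 3.79, 3.74 and 3.81. Leaving out KO replicate 2, the median log2 fold change of the members was -0.03, with 22 lower, and without KO replicate 1 it was -0.12, with 27 lower. Leaving out WT libraries gave similar values, -0.04 with 25 lower without WT replicate 2 and -0.11 with 29 lower without WT replicate 1. WT replicate 2 held the highest level for 14 of 37 members, and for 3517 of the 14274 genes tested. KO replicate 2 also had the lowest sums of macrophage and B cell markers and the highest sums of plasma cell and epithelial markers. Its stromal or endothelial sum (179) was close to that of WT replicate 2 (177). As for single markers, the lists differed. KO replicate 2 was the lowest library for 9 of 11 macrophage and 5 of 7 B cell markers, against 25.7% of all genes. It was lowest for 0 of the 5 plasma cell, 0 of the 10 epithelial and 0 of the 8 stromal or endothelial markers tested. The part of these marker differences in the member levels was not tested.

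**Figure D2:**
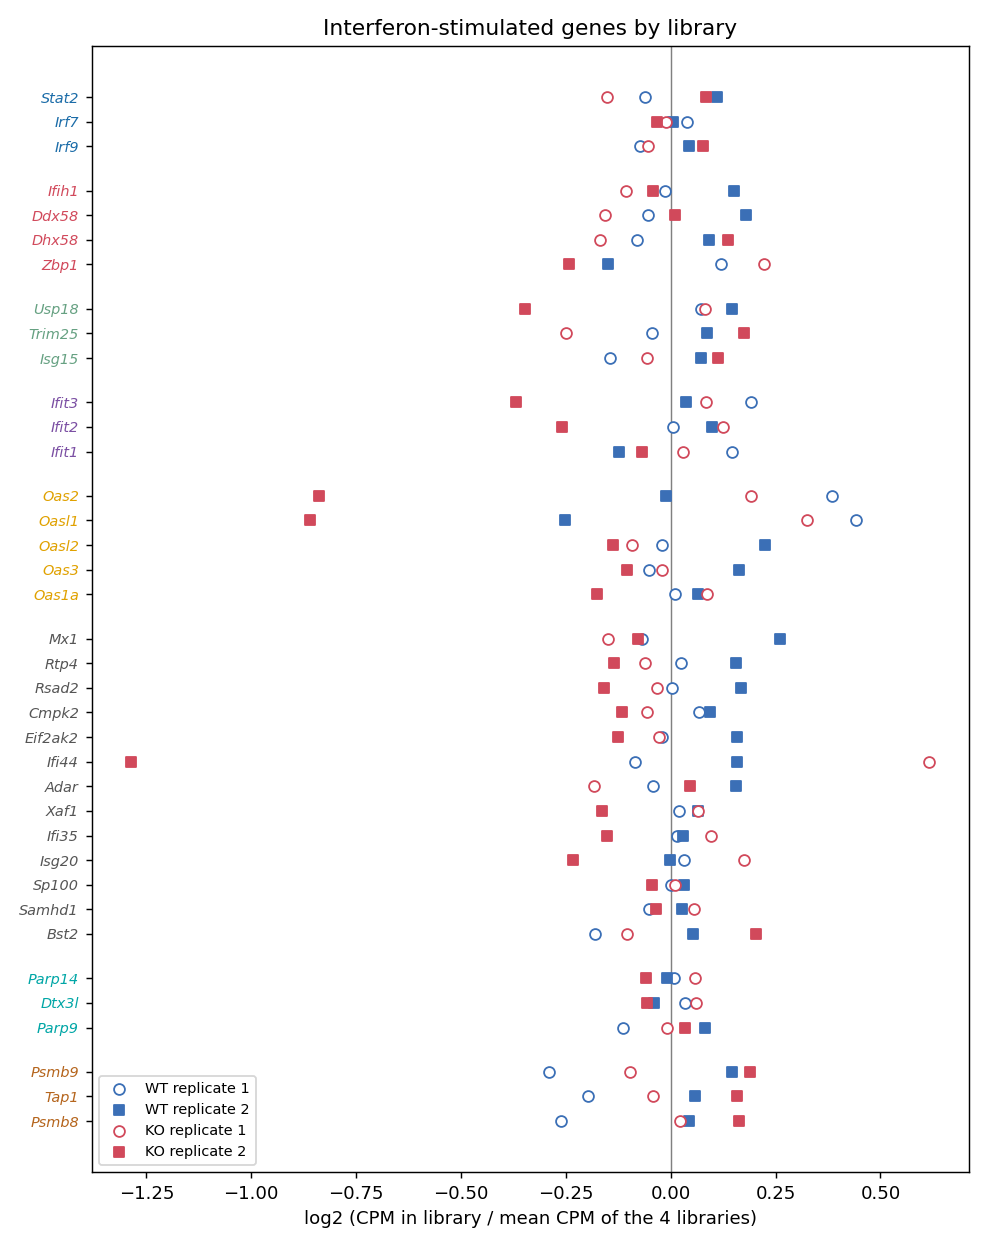
Level of each member in each library, as log2 of CPM over the mean CPM of that member's 4 libraries (x axis), with members on the y axis grouped by role. Blue is WT and red is KO, open circles are replicate 1 and filled squares replicate 2, and the filled red squares are leftmost for 21 of 37 members.

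Both KO libraries lay below both WT libraries for 8 of 37 members (21.6%), against 13.4% of all genes, and above both for 0 members, against 13.5% of all genes. The first count was 6 with upper-quartile factors and 10 with library totals as the only scaling. The 8 were Irf7, Ifih1, Oasl2, Mx1, Rsad2, Eif2ak2, Rtp4 and Cmpk2. Across the 37 members the log2 ratios of the replicates had a Pearson correlation of -0.27 and a Spearman correlation of 0.19. Without Ifi44, the member with the fewest counts, these were 0.39 and 0.29 over 36 members. These are descriptions over genes that share 4 libraries, and genes are not independent replicates.

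**Figure D3:**
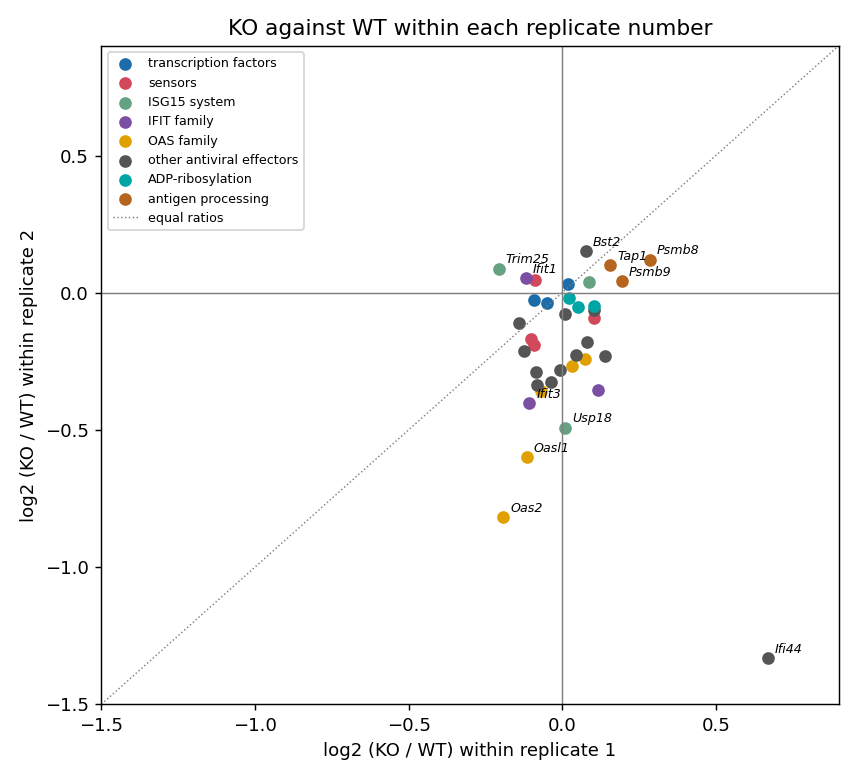
Log2 ratio of KO over WT within replicate 1 (x axis) and within replicate 2 (y axis), 1 point per member coloured by role, and a dotted line where both are equal. 28 of 37 points lie below 0 on the y axis and 17 left of 0 on the x axis, with Ifi44, Oas2 and Oasl1 farthest down.

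The transcription factors that carry the interferon signal were close to level in all libraries. Irf7, which amplifies interferon production, stood at 88.4, 86.4, 85.5 and 84.2 CPM (log2 fold change -0.04 ± 0.09, SE, 95% interval -0.27 to 0.18). Irf9, the DNA-binding part of the ISG complex, stood at 176, 191, 179 and 195 CPM, higher in both replicate 2 libraries than in both replicate 1 libraries, and its log2 fold change was 0.03 ± 0.10. Stat2, its partner, stood at 58.9, 66.3, 55.3 and 65.1 CPM (-0.06 ± 0.13). For Irf9 and Stat2 the replicates were thus farther apart than the genotypes. Of the 3 genes 2 were lower, and with library totals as the only scaling Irf9 also turned below 0 (-0.0048).

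Among the cytosolic sensors, the RNA helicase genes Ifih1 and Ddx58 gave values slightly lower in KO. Ifih1, which encodes the long RNA sensor MDA5, stood at 60.5, 67.8, 56.8 and 59.4 CPM, and its KO libraries lay under both WT libraries (log2 fold change -0.14 ± 0.11, 95% interval -0.42 to 0.13). Ddx58, which encodes RIG-I, the sensor of RNA 5′ triphosphate ends, stood at 83.2, 97.8, 77.5 and 87.0 CPM (-0.14 ± 0.12), with overlapping groups. Dhx58, the regulatory helicase LGP2, stood at 13.9, 15.7, 13.1 and 16.2 CPM (-0.02 ± 0.15). Zbp1, a sensor of Z-form nucleic acid that can start cell death, was different in pattern and stood at 51.2, 42.5, 55.0 and 39.8 CPM, lower in both replicate 2 libraries (0.02 ± 0.19). None of the 4 passed, and Zbp1 alone was above 0, although it too was below 0 with library totals as the only scaling.

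The ISG15 system conjugates the ubiquitin-like protein ISG15 to other proteins. Isg15 itself stood at 16.7, 19.4, 17.8 and 20.0 CPM (log2 fold change 0.06 ± 0.13, 95% interval -0.27 to 0.39). Both replicates gave a positive ratio, 0.09 in replicate 1 and 0.04 in replicate 2. Usp18, the protease that removes ISG15 and also damps the type I receptor, stood at 14.5, 15.2, 14.6 and 10.8 CPM. The 2 WT libraries and KO replicate 1 agreed closely there, and KO replicate 2 was at 73.3% of their mean (log2 fold change -0.23 ± 0.17, 0.01 in replicate 1 and -0.49 in replicate 2). Trim25, a ligase for ISG15 and for ubiquitin that activates RIG-I, stood at 41.2, 45.1, 35.7 and 48.0 CPM (-0.04 ± 0.16), and its 2 KO libraries enclosed the WT range.

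The IFIT proteins bind foreign RNA ends and block translation. Ifit1 stood at 38.2, 31.7, 35.2 and 32.9 CPM (log2 fold change -0.04 ± 0.13). Ifit2 stood at 34.0, 36.2, 36.9 and 28.3 CPM (-0.11 ± 0.15), and Ifit3 at 14.1, 12.7, 13.1 and 9.57 CPM (-0.24 ± 0.18). For Ifit2 and Ifit3 KO replicate 2 was the lowest library, whereas for Ifit1 it was WT replicate 2. All 3 were below 0 under each scaling tried, but 1 of 3 was above 0 without WT replicate 1, and 2 of 3 without KO replicate 2, where the median was 0.01. The 3 genes lie in 1 cluster on chromosome 19 (mm9 positions 34625184 to 34724499), and reads of closely related copies in the cluster may be shared between them.

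The OAS family, enzymes that make the 2′-5′ linked second messenger for RNase L, and their relatives had the lowest median, -0.23, with 5 of 5 below 0 under each scaling tried. Oas1a stood at 18.1, 18.8, 19.1 and 15.9 CPM (log2 fold change -0.08 ± 0.13) and Oas3 at 27.4, 31.8, 28.0 and 26.4 CPM (-0.12 ± 0.12). Oas2 stood at 6.40, 4.87, 5.61 and 2.74 CPM (-0.44 ± 0.38, -0.19 in replicate 1 and -0.82 in replicate 2). Oasl1, a brake on Irf7 translation, stood at 6.85, 4.24, 6.32 and 2.78 CPM (-0.29 ± 0.45). Both Oas2 and Oasl1 were lower in replicate 2 than in replicate 1 of each genotype, and KO replicate 2 was at 48.8% and 47.9% of the mean of the other libraries. Oasl2 stood at 5.51, 6.53, 5.25 and 5.09 CPM (-0.23 ± 0.19), with both KO libraries below both WT libraries. Leaving out KO replicate 2 left 3 of the 5 genes below 0 with a median of -7.55e-05, and leaving out WT replicate 1 left 4. Oas2 and Oas3 are neighbours on chromosome 5 in mm9 (3.24 kb apart), as are Oasl2 and Oasl1 (11.0 kb), and reads shared among the many Oas1 copies make the Oas1a value uncertain.

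The remaining antiviral effectors held the members of lowest p. Rtp4, a chaperone of receptor transport that also restricts viruses, stood at 23.3, 25.6, 22 and 20.9 CPM, or 24.4 ± 1.58 in WT and 21.4 ± 0.786 in KO (mean ± SD, n = 2 libraries). The fold change was -0.19 ± 0.11 on the log2 scale (SE, 95% interval -0.46 to 0.08, edgeR unadjusted p = 0.135, adjusted p = 1.00), the lowest p of the 37. Rsad2, which encodes the antiviral enzyme viperin, stood at 25.8, 29.0, 25.2 and 23.1 CPM (-0.19 ± 0.12). Its divergent neighbour on chromosome 12, Cmpk2, a mitochondrial nucleotide kinase 12.8 kb away in mm9, stood at 10.9, 11.2, 10.0 and 9.63 CPM (-0.17 ± 0.12). In these 3 genes the groups did not overlap, with -0.08, -0.04 and -0.12 in replicate 1 and -0.29, -0.33 and -0.21 in replicate 2.

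Mx1, a GTPase that traps viral nucleocapsids, stood at 13.9, 17.4, 13.1 and 13.8 CPM (-0.22 ± 0.15), and WT replicate 2 was the library that stood apart. Eif2ak2, the RNA-activated kinase PKR that halts translation, stood at 29.2, 33.1, 29.1 and 27.2 CPM (-0.15 ± 0.11). Isg20, an RNA exonuclease, stood at 27.0, 26.4, 29.8 and 22.5 CPM (-0.03 ± 0.16), so that the 2 KO libraries were the highest and the lowest of the 4. Xaf1, a promoter of cell death, and Ifi35 showed the same order of extremes, with 15.1, 15.6, 15.6 and 13.3 CPM and 47.4, 47.9, 50.2 and 42.3 CPM. Ifi44 had only 21, 59, 39 and 18 counts (0.782, 0.927, 1.27 and 0.341 CPM), with log2 ratios of 0.67 in replicate 1 and -1.33 in replicate 2, so its direction cannot be read at this depth.

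The other effectors are genes with roles outside infection. Adar, the RNA editing enzyme, stood at 155, 178, 141 and 165 CPM (-0.12 ± 0.12). Sp100, a component of nuclear bodies, stood at 176, 179, 177 and 170.0 CPM (-0.03 ± 0.08), and Samhd1, which depletes the nucleotides that retroviruses need, at 361, 381, 389 and 365 CPM (0.02 ± 0.09, 95% interval -0.20 to 0.24). Bst2, the tether of budding virions that is also made by plasma cells, was like Samhd1 above 0. It stood at 27.3, 32.0, 28.7 and 35.6 CPM (0.12 ± 0.15), with KO replicate 2 highest. The plasma cell markers had the same highest library, and their part in the Bst2 level was not tested. Of these 13 effectors 11 were below 0, or 12 with library totals as the only scaling, where Samhd1 also changed sign.

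In the ADP-ribosylation group the genotypes overlapped for each gene. Parp9 and its partner Dtx3l, a ubiquitin ligase, form a complex that enhances interferon responses. Parp9 stood at 98.9, 113, 106 and 109 CPM (0.02 ± 0.10, 95% interval -0.24 to 0.28) and Dtx3l at 143, 135, 145 and 134 CPM (0.0039 ± 0.0918). Parp14, a larger family member with a link to Stat6 signalling, stood at 249, 246, 258 and 237 CPM (0.0015 ± 0.0872). All 3 were above 0 by these minute amounts and below 0 with library totals as the only scaling. In mm9, Dtx3l and Parp9 are transcribed from opposite strands of chromosome 16 and their annotations overlap by 682 bp at the starts, so that without known strand reads in that stretch cannot be assigned to 1 of them.

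Antigen processing genes were the 1 group with higher values in KO in both replicates. Psmb8, the immunoproteasome subunit LMP7, stood at 199, 246, 242 and 267 CPM (log2 fold change 0.20 ± 0.13, 95% interval -0.13 to 0.52). Its log2 ratio was 0.29 in replicate 1 and 0.12 in replicate 2. Tap1, a subunit of the peptide transporter into the endoplasmic reticulum, stood at 351, 419, 392 and 450.0 CPM (0.13 ± 0.13, 0.16 and 0.10). Psmb9, the subunit LMP2, stood at 66.2, 89.7, 75.8 and 92.4 CPM (0.11 ± 0.18, 0.19 and 0.04). In all 3, WT replicate 1 was lowest and KO replicate 2 highest, replicate 2 exceeded replicate 1 in each genotype, and the groups overlapped. All 3 stayed above 0 under each scaling, but the values rested on WT replicate 1 and KO replicate 2. Leaving out WT replicate 1 gave -0.09 for Psmb9, 0.0029 for Tap1 and 0.05 for Psmb8, and leaving out KO replicate 2 gave -0.04, 0.02 and 0.12. The genes sit side by side on chromosome 17 in mm9. Psmb9 and Tap1 overlap by 212 bp on opposite strands, so the counts of these genes may share reads. Psmb8 starts 495 bp past Tap1 and does not overlap it.

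Other genes of class I antigen presentation lay on the same side of 0. Of 18 such genes found and tested, 18 had a log2 fold change above 0 and 0 below, where 48% of all genes were below. The median was 0.10, the smallest value was 0.00012, and 0 passed the edgeR test. Within replicate 2, 3 of the 18 were lower in KO. With DESeq2 size factors 1 of 18 was below 0, as was 1 with upper-quartile factors. With library totals as the only scaling 3 of 18 were below 0 and the median was 0.07, and leaving out single libraries put 3 to 4 below 0. The classical class I heavy chain gene H2-K1 stood at 3957, 3681, 4313 and 4073 CPM (0.13 ± 0.11), and its light chain B2m at 3245, 3180, 3668 and 3352 CPM (0.13 ± 0.10). H2-T22, a nonclassical class I gene, stood at 232, 275, 279 and 300.1 CPM (0.19 ± 0.11). Reads are easily shared among class I genes, so these single values are uncertain.

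Among the interferon genes themselves, Ifng, which encodes interferon gamma, had 692 to 3898 counts in a library and the others at most 75. Ifng stood at 25.8, 36.4, 47.0 and 73.7 CPM, with both KO libraries above both WT libraries, and its log2 fold change was 0.96 ± 0.27 (0.86 in replicate 1 and 1.02 in replicate 2). It did not pass edgeR over all genes (adjusted p = 1.00), and by DESeq2 the adjusted p was 0.0497. Ifng was also under 0.05 in the authors' deposited table, at 0.0364. Ifnb1, the first type I interferon made after sensing, had 49, 2, 31 and 8 counts, or 1.82, 0.031, 1.01 and 0.151 CPM. It was thus higher in both replicate 1 libraries, which also had the higher macrophage marker sums, and whether the 2 are related was not tested. The interferon zeta gene Ifnz had 26, 75, 15 and 34 counts (-0.92 ± 0.44), and of the interferon alpha genes found in the table Ifna13 had 19, 29, 12 and 7 counts and Ifna5, Ifna6 and Ifna12 at most 3 in a library. Ifnab had 5, 0, 0 and 13 counts.

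Receptors and kinases were close to equal, with 8 of 9 above 0, a median of 0.07 and 0 passing. Ifnar1 stood at 580, 490, 625 and 539 CPM (0.12 ± 0.13) and Ifnar2 at 83.9, 84.9, 87.9 and 84.1 CPM (0.03 ± 0.09). Ifngr1 stood at 1564, 1424, 1670 and 1545 CPM (0.11 ± 0.11) and Ifngr2, the only one below 0, at 48.3, 44.5, 45.9 and 42.5 CPM (-0.07 ± 0.11). Jak1 and Tyk2 had log2 fold changes of 0.04 ± 0.12 and 0.07 ± 0.12. With library totals as the only scaling 3 of the 9 were below 0.

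**Figure D4:**
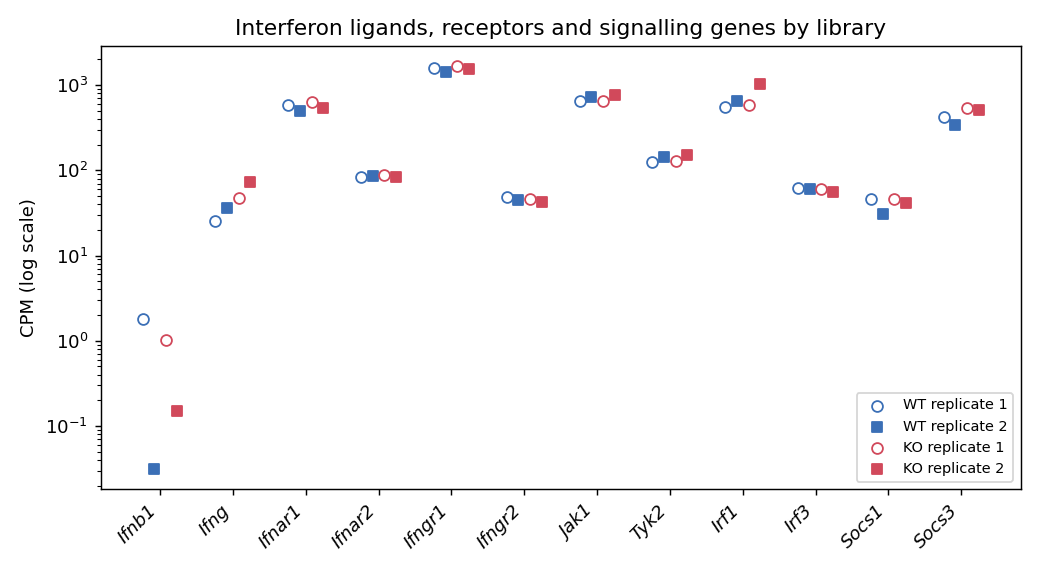
CPM on a log axis of interferon ligand, receptor, signalling and feedback genes in each library (blue WT, red KO, open circles replicate 1, filled squares replicate 2), to be compared across libraries within a gene. Ifng is higher in both KO libraries than in both WT libraries, Ifnb1 is higher in both replicate 1 libraries, and Irf1 reaches 1038 CPM in KO replicate 2.

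Other interferon regulatory factors and feedback genes lay on both sides of 0. Irf1, a factor that interferon gamma induces and that acts on Tap1 and Psmb9, stood at 556, 654, 582 and 1038 CPM, with a ratio on the log2 scale of 0.06 in replicate 1 and 0.67 in replicate 2 (pooled 0.42 ± 0.27). KO replicate 2 alone stood apart. Irf8, a myeloid and lymphoid relative, stood at 33.8, 43.8, 45.3 and 63.9 CPM (0.49 ± 0.21), and Irf3, the constitutive inducer of Ifnb1, at 61.8, 61.1, 60.6 and 55.2 CPM (-0.09 ± 0.10). Socs1, the suppressor of Jak kinases, stood at 45.7, 31.1, 46.0 and 41.7 CPM (0.19 ± 0.20). Socs3, a suppressor best known in interleukin-6 signalling, stood at 417, 338, 540 and 515 CPM, both KO libraries above both WT libraries (0.48 ± 0.12, edgeR unadjusted p = 0.00938, adjusted p = 1.00). Nlrc3, another negative regulator, stood at 77.6, 89.5, 64.3 and 70.0 CPM, both KO libraries below both WT libraries. Its log2 fold change was -0.32 ± 0.12 (edgeR unadjusted p = 0.0388), and it did not pass over all genes. Of 15 negative regulators tested, 6 were below and 9 above 0, and of 7 other regulatory factors 3 and 4.

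Among inducers and adaptors 11 of 15 were below 0 and 0 passed over all genes. Tlr7, the endosomal sensor of single-stranded RNA, stood at 9.87, 11.6, 7.43 and 7.85 CPM, with both KO libraries below both WT libraries (-0.49 ± 0.15, edgeR unadjusted p = 0.0188, adjusted p = 1.00). Tlr7 is also expressed by macrophages and B cells, whose marker sums are given above, and their part in its level was not tested. Ddx60, a helper of RIG-I, stood at 44.7, 53.6, 43.1 and 40.7 CPM (-0.23 ± 0.13).

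A further list of 82 ISGs tested, which shares no gene with the 37, was also more often below 0 in replicate 2. Of these 82, 58 were below 0 when pooled (median -0.04), 35 within replicate 1 (median 0.03) and 58 within replicate 2 (median -0.09). The lowest library was WT replicate 1 for 27 of 82, KO replicate 2 for 23 (25.7% of all genes), KO replicate 1 for 21 and WT replicate 2 for 11, so that KO replicate 2 was not the most frequent here, whereas among the 37 it was. Ly6a, a surface protein of activated T cells, stood at 116, 145, 158 and 165 CPM (0.30 ± 0.13) and the GTPase Igtp at 270, 281, 330 and 304 CPM (0.20 ± 0.09). Trim30d stood at 54.3, 59.0, 48.8 and 47.4 CPM (-0.24 ± 0.10) and Slfn5, a regulator of T cell quiescence, at 57.6, 61.8, 53.4 and 47.3 CPM (-0.25 ± 0.11). In these 4 genes the groups did not overlap, and none passed the edgeR test. Over the list, both KO libraries lay below both WT libraries for 15 of 82 and above for 9 of 82, against 13.4% and 13.5% of all genes. WT replicate 2 was the highest library for 43 of 82, and without it 35 of 82 were below 0.

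The 11 members with an ISRE core and the 18 without one had median log2 ratios of -0.04 and 0.04 in replicate 1 and of -0.19 and -0.09 in replicate 2. In replicate 2, 8 of 11 and 13 of 18 were below 0. The 8 members without a matched window had medians of -0.04 in replicate 1 and -0.19 in replicate 2, where 7 of these 8 were below 0. The sequences shown above belonged to genes on either side of 0, from Rsad2 (-0.19) and Ifih1 (-0.14) to Isg15 (0.06) and Bst2 (0.12). The difference between the groups was not tested. Of the 9 members with the gamma-activated core, Bst2, Samhd1 and Psmb8 were above 0 when pooled and the others below.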

How the data were processed

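The 4 RNA-seq libraries of sorted Treg cells were used. ATAC-seq data of the series (4 samples) were not used here. Per the labels' protocols, total RNA was depleted of ribosomal RNA and read as 50 bp single-end reads. The authors' deposited table holds raw counts per gene and library with mm9 positions, and the authors' deposited adjusted p-value, read as comparing KO with WT although no source states it. TopHat2 and DESeq are named, per the submitters' processing notes. How reads were counted, with which gene models and whether by strand, is not given in the sources used here.

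Columns were matched to samples by title. Genes were filtered by filterByExpr (14274 tested, 4917 not), scaled by TMM and tested in edgeR 4.0.16 (R 4.3.3) by its quasi-likelihood test, fitting genotype alone with 2 residual degrees of freedom and Benjamini-Hochberg adjustment over all genes. A fold change has a standard error of its size over the root of F. Log2 ratios within a replicate subtract log2 CPM values computed with prior count 2. Marker sums use all counts without a TMM factor. DESeq2 1.42.0 and limma 3.58.1 were alternatives. The scripts were tested on simulated data. The members and lists were chosen with earlier results of these data known. Every member could be named, values per library being required for the 6 of lowest p in each direction and the first of each role, and up to 4 genes of lowest p per other list beside a set of pathway genes. Other genes and members named with values, the gamma-activated core and the choice of 1 core per gene came after the values were seen. Sequences were kept to 30 bases around a core. A gene of the receptor and kinase list is not reported here, and the counts of that list leave it out.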

Additional observations from a re-analysis of the deposited data

How the results depend on the processing

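The count of called members was 0 with each of the scalings, filters and tests tried and with the replicate number as a block. Over all genes, 3.21% were called with that block and 0.273% with no filter on low counts. The number of members at an unadjusted p under 0.05 was 0 as reported and 5 with the replicate block (Ifit3, Oas2 and Usp18 lower, Tap1 and Psmb8 higher), a fit with 1 residual degree of freedom in which 13.2% of all genes had such a p and the lowest adjusted p of a member was 0.0854. It ranged from 0 to 4 without single libraries, with 4 without KO replicate 1 (Ifit3, Oas2, Oasl1 and Usp18) and 1 without WT replicate 2 (Psmb8). Deviations of same-numbered libraries from their group means correlated at 0.641 over all genes, but the labels give only a shared number and there are 2 pairs, so the pairing was not assumed. The number of members lower in KO ran from 22 to 32 and their median log2 fold change from -0.12 to -0.03. Library totals without a scaling factor moved the share of genes lower in KO from 48% to 56.6%, the members lower to 32 and their median to -0.09, and turned Irf9 (-0.0048) and Parp9 (-0.0069). Without single libraries the log2 fold change ranged from -0.047 to 0.25 for Bst2, -0.17 to 0.10 for Ifit1, -0.041 to 0.084 for Irf9, -0.043 to 0.18 for Isg15, -0.26 to 0.16 for Isg20, -0.23 to 0.047 for Oas1a, -0.072 to 0.12 for Parp9 and -0.094 to 0.34 for Psmb9, and the cause was not tested. Where a library is left out, its genotype keeps only 1, which is taken to vary like the others. Depth limits Ifi44 and the interferon genes of few counts, and 2 libraries per genotype limit every estimate of spread.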

Other observations

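Some relatives of the members, chosen after their values were seen, are given here. Mx2, the paralogue of Mx1, stood at 8.79, 10.5, 7.33 and 8.04 CPM (WT replicate 1, WT replicate 2, KO replicate 1, KO replicate 2), a log2 fold change of -0.33 ± 0.16. Oas1g stood at 7.86, 7.33, 6.75 and 5.05 CPM (-0.37 ± 0.20), Oas1b at 7.63, 9.03, 7.89 and 6.41 CPM (-0.23 ± 0.18) and Oas1c at 9.38, 12.6, 9.39 and 10.0 CPM (-0.19 ± 0.18). Oas1e, with 2, 32, 1 and 34 counts, was at 0.19 ± 1.26. In Mx2 and Oas1g both KO libraries lay below both WT libraries, and in Oas1b and Oas1c they did not. None passed edgeR over all genes. Reads of these related genes may be shared with Oas1a and Mx1, which was not tested.

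The GTPases that interferon gamma induces lay on both sides of 0. Igtp, Tgtp1 and Tgtp2 had log2 fold changes of 0.20, 0.17 and 0.09, while Irgm1, Irgm2 and Ifi47 had -0.01, -0.04 and -0.08. Cxcl10, a chemokine gene induced by interferons, stood at 125, 103, 94.2 and 106 CPM (-0.19 ± 0.13). None passed edgeR over all genes.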
